A study of Auxenochlorella pyrenoidosa with 12 samples.

Results

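The late state of PMS-exposed Chlorella pyrenoidosa, made up of days 6, 9 and 12, was set against its early state, made up of day 0 and the control. The comparison used 10 of the 12 libraries of the series, 6 late and 4 early. The 2 libraries of day 3, which lies between the states, were left out of every test. It was read on the contigs that reached at least 1 FPKM in all 4 early libraries, which were 12504 of the 30814 contigs of the table (40.6%). These are called early-expressed contigs here, since each was present in every library of the early state.

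Chlorella pyrenoidosa, named Auxenochlorella pyrenoidosa in the organism label, is a unicellular green alga of fresh water. The late cultures had been exposed to 8.49 mg/L potassium peroxymonosulfate (PMS), which is 0.5 of the median effective concentration of the acute test, and were sampled on days 6, 9 and 12. The early cultures were those given the same dose and sampled on day 0, and control cultures without PMS, whose title leaves it unclear whether its 0 is a dose or a day. Each of these 5 groups held 2 libraries of total RNA from whole cells. No control labelled day 6, 9 or 12 was analysed here, and the day of the control used is unclear. Exposure and the age of the culture therefore cannot be told apart in the late state.

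PMS is a strong oxidant used to treat water, and it decays once dissolved. In unicellular algae an oxidant can damage membranes, pigments and the photosynthetic machinery, and cells can answer with antioxidant enzymes, protein repair and changes in carbon use. An algal culture left without fresh medium also changes with age, as nutrients and light per cell run down. The files pair no contig with a gene name, so the members are described by their levels and not by function, and the labelled cell type could not be checked against marker genes.

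Values are FPKM, fragments scaled to contig length and library total. Changes are late minus early on log2(FPKM + 1), which understates the change of low contigs. A contig is called where limma gave a Benjamini-Hochberg adjusted p under 0.05 over the whole table. The fit had one mean for the 6 late and one for the 4 early libraries, so differences among the days of a state counted as spread. Fewer cells carrying a transcript and less of it per cell cannot be told apart in such bulk RNA.

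Most early-expressed contigs sat at a different level in the late state, and more of them were lower than higher. Late levels were lower for 6819 contigs (54.5% of the 12504) and higher for 2708 (21.7%), by limma with n = 6 late and 4 early libraries. Of all contigs in the files, 25.1% were called lower and 42.5% higher. The choice of contigs bears on this split, because a contig had to be present early to be counted and could only then disappear. Among the 18249 contigs that averaged 1 FPKM or more over all 10 libraries, 6919 were lower and 6235 higher. Among 12339 contigs with at least 1 FPKM in all 6 late libraries, the mirror of the choice made here, 4294 were lower and 5199 higher. Among the 9578 contigs with at least 1 FPKM in all 10 libraries, a set chosen after seeing the data, 4294 were lower and 2708 higher. On FPKM as deposited, falls were thus in excess among the contigs present early, also where they were present late. This excess was not found over all contigs present late. The 9578 contigs had a median change of only -0.26 and were not counted with rescaled libraries, so their excess may depend on the scale of the libraries.

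The scale of the libraries also moved the split. When libraries were rescaled by their median ratio, 5702 early-expressed contigs were lower and 3470 higher. The median change of all early-expressed contigs moved with it to -0.33, against -0.61 for FPKM as deposited, a shift of 0.28. The scaling factors were 0.916 to 1.011 in the late libraries and 1.105 to 1.238 in the early ones, so rescaling moved changes upward. All 2708 rises and 5702 of the 6819 falls were called in the same direction under both scalings. With this upward shift rises could hardly drop out, so nothing is read from their being kept.

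The groups of libraries separated fully for most called contigs. All 6 late libraries lay below all 4 early ones for 5977 contigs (47.8%), where 20.5% of the whole table did so. All 6 lay above for 2284 (18.3%), against 35.2% of the whole table. Without the 2 day 0 libraries 6149 contigs were lower and 2381 higher than the control alone, and without the control 6291 were lower and 2544 higher than day 0 alone. On early-expressed contigs the late state thus differed from either early group taken by itself. Shares of the whole table were not counted for these 2 fits. With all 10 libraries 25.1% of the whole table was lower and 42.5% higher.

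**Figure D1:**
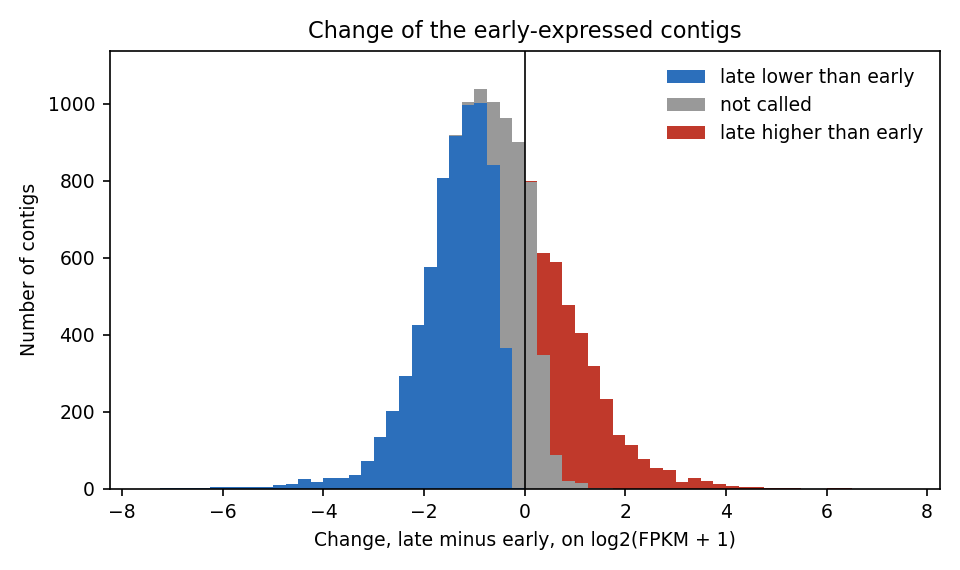
Number of early-expressed contigs by change (late minus early on log2(FPKM + 1), bins of equal width), stacked by call from limma. The 6819 contigs called lower form a broad left flank, the 2708 called higher form the right flank and 2977 contigs around 0 were not called.

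Among the early-expressed contigs falls outnumbered rises at each size examined, and did so under both scalings. Over the whole table, on FPKM as deposited, rises outnumbered falls at each of these sizes. Fold sizes here and for the drift below are of FPKM + 1, so a contig low early cannot show a large fall. Among the 6819 contigs that fell, the median change was -1.30, and the late level in FPKM was a median of 0.306 times the early one. Falls of at least 2-fold numbered 4609 (36.9%; 16.1% of the whole table), of at least 4-fold 1314 (10.5%; 4.28%) and of at least 16-fold 98 (0.784%; 0.318%). Among the 2708 that rose, the median change was 1.08, and the late level in FPKM was a median of 2.28 times the early one. Rises of at least 2-fold numbered 1481 (11.8%; 20.2% of the whole table), of at least 4-fold 401 (3.21%; 5.42%) and of at least 16-fold 25 (0.200%; 0.779%). With rescaled libraries falls and rises numbered 3583 and 2054 at 2-fold, 851 and 572 at 4-fold and 77 and 43 at 16-fold.

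Complete loss from all 6 late libraries was rare. In the late libraries 927 early-expressed contigs (7.41%) lay below 1 FPKM in all 6, from a median early mean of 3.14 FPKM, and the highest early mean among them was 170 FPKM. Only 39 contigs were below 0.1 FPKM in all 6 late libraries and 20 were below 0.01. The early mean of those 20 had a median of 5.13 and reached 22.4 FPKM. Taken singly, each late library had 229 to 279 early-expressed contigs below 0.01 FPKM and 1833 to 2007 below 1 FPKM. The larger share, 9578 contigs (76.6%), kept at least 1 FPKM in all 10 libraries. At the entry threshold itself, the 100 contigs just inside had a lowest early value of 1.00 to 1.03 FPKM and a median change of -0.25, and the 100 just outside had 0.969 to 1.00 FPKM and a median change of -0.32.

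The contigs that fell had much the same median on all 3 late days. It was 2.73 and 2.66 FPKM in the day 6 libraries, 2.66 and 2.64 in those of day 9 and 2.53 and 2.56 in those of day 12, against 10.3 and 10.2 FPKM in the day 0 libraries and 8.73 and 8.85 in the control. Together they held 18.3% to 20.04% of the FPKM of each late library, against 50.9% to 52.9% of each early one. The contigs that rose had medians of 21.2 and 21.5 FPKM in the day 6 libraries, 22.0 and 24.5 in those of day 9 and 23.1 and 23.0 in those of day 12, against 8.52 and 8.04 FPKM in the day 0 libraries and 9.56 and 9.35 in the control. They held 28.4% to 33.5% of the FPKM of a late library and 10.5% to 12.8% of an early one. Since these sets were chosen by their late and early values, the levels are a description. The set that rose had 8.57 times the median of the set that fell in the late libraries, and 0.934 times its median in the early ones.

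**Figure D2:**
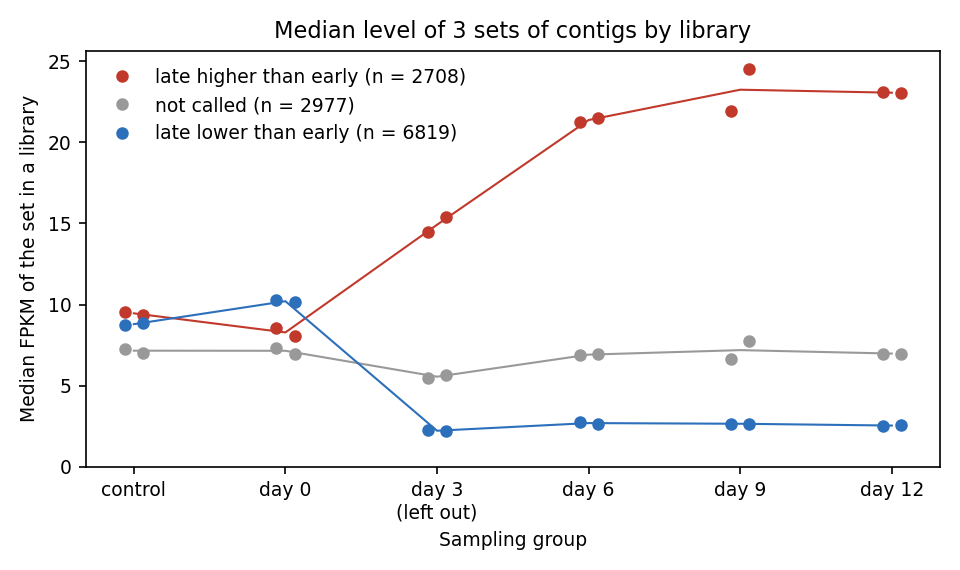
Median FPKM of the contigs called higher, called lower or not called in each of the 12 libraries, with the control first and then by day. There is 1 point per library, and lines run through the mean of the 2 libraries of a group. Late medians of the contigs that fell stay between 2.53 and 2.73 FPKM, and those of the contigs that rose lie between 21.2 and 24.5 FPKM.

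The named contigs were chosen among called contigs whose 6 late libraries all lay above, or all below, the 4 early ones. The 2 contigs with the largest rise reached their late level in different ways. TRINITY_DN16841_c0_g1_i1_1 had 104 and 97.9 FPKM in the day 6 libraries, 292 and 227 in those of day 9 and 293 and 296 in those of day 12, against 1.25 and 1.10 FPKM in the day 0 libraries and 1.22 and 1.24 in the control. Day 6 was the lowest of the late days. Its mean was 218 ± 94.5 FPKM late (SD, n = 6) and 1.20 ± 0.0695 early (SD, n = 4), a ratio of 181, with a change of 6.49 (SE 0.32, limma adjusted p = 7.97e-09). TRINITY_DN708_c0_g1_i18_1 had 1154 and 1145 FPKM in the day 6 libraries, 833 and 763 in those of day 9 and 1011 and 919.9 in those of day 12, against 12.6 and 12.3 FPKM in the day 0 libraries and 13.7 and 12.2 in the control. Here day 6 was the highest of the late days. Its mean was 971 ± 161 FPKM late (SD, n = 6) and 12.7 ± 0.674 early (SD, n = 4), a ratio of 76.5, with a change of 6.13 (SE 0.13, limma adjusted p = 1.37e-11). On day 3 these contigs stood at 54.3 ± 0.255 and 200.1 ± 1.74 FPKM (SD, n = 2), between their early and late levels.

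The 2 contigs with the largest fall were near 0 late and well expressed early, which a fall of this size on log2(FPKM + 1) requires. TRINITY_DN2139_c0_g1_i1_1 had 0.136 and 0.0759 FPKM in the day 6 libraries, 0.0953 and 0.0263 in those of day 9 and 0.228 and 0.402 in those of day 12, against 191 and 152 FPKM in the day 0 libraries and 168 and 169 in the control. No late library exceeded 0.402 FPKM. The late mean was 0.161 ± 0.136 FPKM (SD, n = 6), which is 0.0943% of the early mean of 170 ± 16.1 FPKM (SD, n = 4), with a change of -7.21 (SE 0.13, limma adjusted p = 2.53e-12). TRINITY_DN1633_c0_g2_i1_4 had 0.472 and 0.106 FPKM in the day 6 libraries, 1.00 and 0.484 in those of day 9 and 0.758 and 0.698 in those of day 12, against 158 and 154 FPKM in the day 0 libraries and 224 and 219 in the control. Its early groups did not overlap each other, but both lay far above every late library. The late mean was 0.586 ± 0.306 FPKM (SD, n = 6), which is 0.311% of the early mean of 189 ± 37.6 FPKM (SD, n = 4), with a change of -6.90 (SE 0.18, limma adjusted p = 5.27e-11). On day 3 the first still had 16.3 ± 0.183 FPKM while the second was already at 0.371 ± 0.185 FPKM (SD, n = 2).

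**Figure D3:**
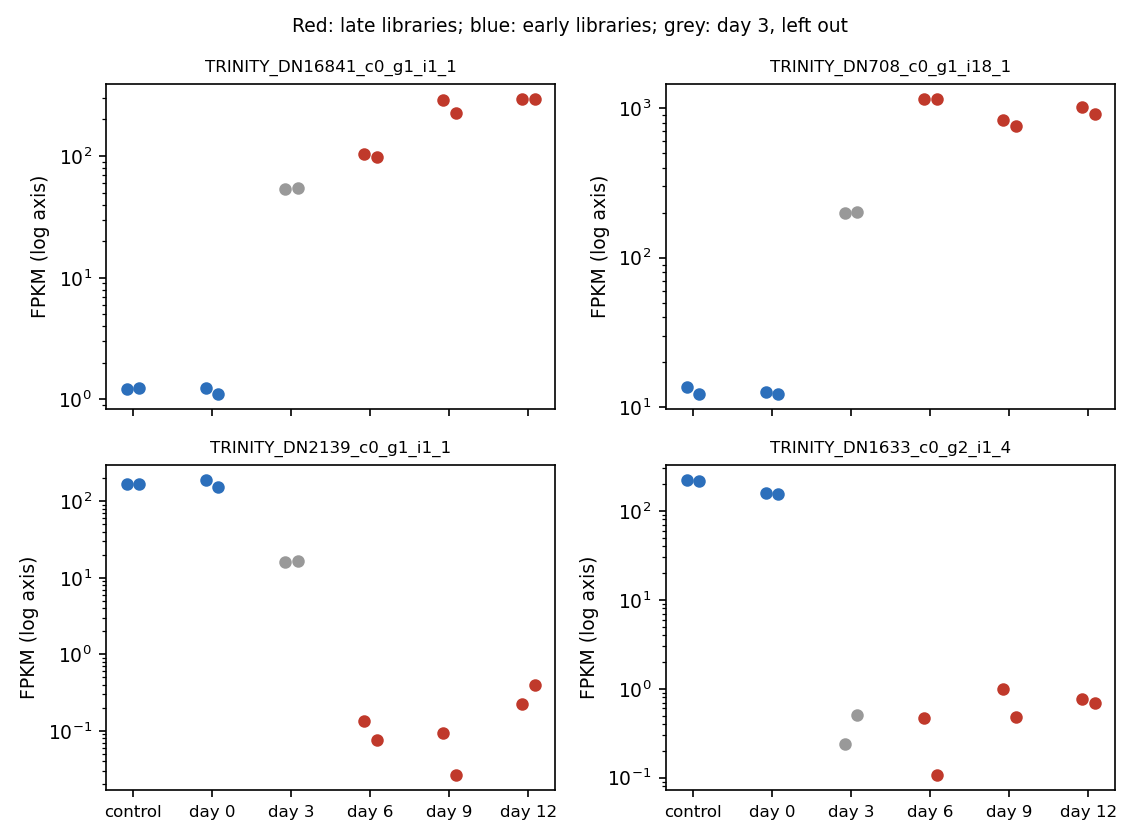
FPKM on a log axis in each of the 12 libraries, with the control first and then by day, and 1 point per library. The 2 contigs with the largest rise are at the top and the 2 with the largest fall at the bottom. Late libraries (red) and early libraries (blue) do not overlap in any panel, which the choice of these contigs required. Day 3 (grey) lies between the states except for TRINITY_DN1633_c0_g2_i1_4.

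On the early-expressed contigs the late days resembled each other more than they resembled the early libraries. The other contigs of the table are not covered by these distances. Over the early-expressed contigs, the median absolute difference on log2(FPKM + 1) was 0.916 to 1.14 between a late and an early library in the 24 such pairs. Between late libraries of different days it was 0.213 to 0.358 in 12 pairs, between day 0 and control libraries 0.297 to 0.364 in 4 pairs, and between the libraries of a group 0.111 to 0.242 in 5 pairs. The difference was 0.300 to 0.358 between day 12 and day 6, the span of the late state, which is about the size of that between day 0 and the control. Of the summed squared variation of these contigs over the 10 libraries, 83.6% lay between late and early, 11.6% between groups within a state and 4.77% between libraries of a group. The pairs share libraries and the contigs are not replicates, so these figures are descriptive.

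Within the late state the days were called different for a minority of contigs, at a share somewhat below that of the whole table. With 2 libraries a day, a contig that was not called may still have moved. The 3 late days differed for 2994 early-expressed contigs (23.9%; 27.3% of the whole table), by limma's moderated F test in a fit of the 5 group means. This count rested on single libraries. It was 1102 and 1420 without the first and second day 6 library, 1285 and 1629 without those of day 12, 1905 and 1907 without those of the control, and it was 4168 and 4029 without those of day 9. In the same fit day 0 and the control differed for 2014 contigs (16.1%; 9.19% of the whole table), and for 438 and 772 without the first and second control library and 1189 and 1023 without those of day 0.

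The range of the 3 late-day means was smaller than the late change for 9319 of the 12504 early-expressed contigs (74.5%). The median range was 0.39 and the median size of the late change 0.98. Among contigs not called, the range was below the change for 385 of 2977 (12.9%), against 6473 of the 6819 that fell (94.9%) and 2461 of the 2708 that rose (90.9%). The call itself requires a change that is large beside the spread among late libraries, so nothing is read from the shares among called contigs. The late days differed for 1183 of the contigs that fell, and on day 12 these were further from the early level than on day 6 in 715 cases and nearer in 468. The late days differed for 885 of the contigs that rose, 510 of them further on day 12 and 375 nearer. With rescaled libraries the numbers were 660 further and 354 nearer for falls, and 630 further and 588 nearer for rises. Single libraries weighed on these numbers too: without the first and second day 6 library falls gave 238 and 318 further with 222 and 250 nearer, without those of day 12 they gave 239 and 361 further with 252 and 267 nearer, and without those of the control 397 and 398 further with 303 and 301 nearer. The balance among falls was thus not kept without the first day 12 library. Rises gave 190 and 254 further with 123 and 161 nearer without the first and second day 6 library, 257 and 320 with 151 and 177 without those of day 12, and 354 and 355 with 240 and 240 without those of the control, so further contigs stayed the more frequent.

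Large drift ran upward more often than downward, as it did over all contigs in the files. Among contigs with differing late days, day 12 was at least 2-fold above day 6 for 397 early-expressed contigs (3.17%; 10.6% of the whole table) and at least 2-fold below for 158 (1.26%; 1.14% of the whole table). At 4-fold or more the numbers were 50 above (0.4%; 1.4% of the whole table) and 2 below (0.016%; 0.101% of the whole table). The whole table held 3277 contigs above and 350 below at 2-fold, so large upward drift was less frequent among early-expressed contigs than over all contigs; this difference was not tested. For early-expressed contigs rescaled libraries gave 390 above and 183 below, and 46 above and 2 below. Of the 50 contigs, 19 were among those called higher in the late state, 6 among those called lower and 25 among those not called. Upward drift stayed the more frequent whichever library was left out, with 254 to 458 contigs above and 76 to 171 below at 2-fold, the lowest numbers being those without the first day 6 library, and 36 to 59 above and 1 to 3 below at 4-fold. The downward number at 2-fold was 90 without the first day 12 library.

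**Figure D4:**
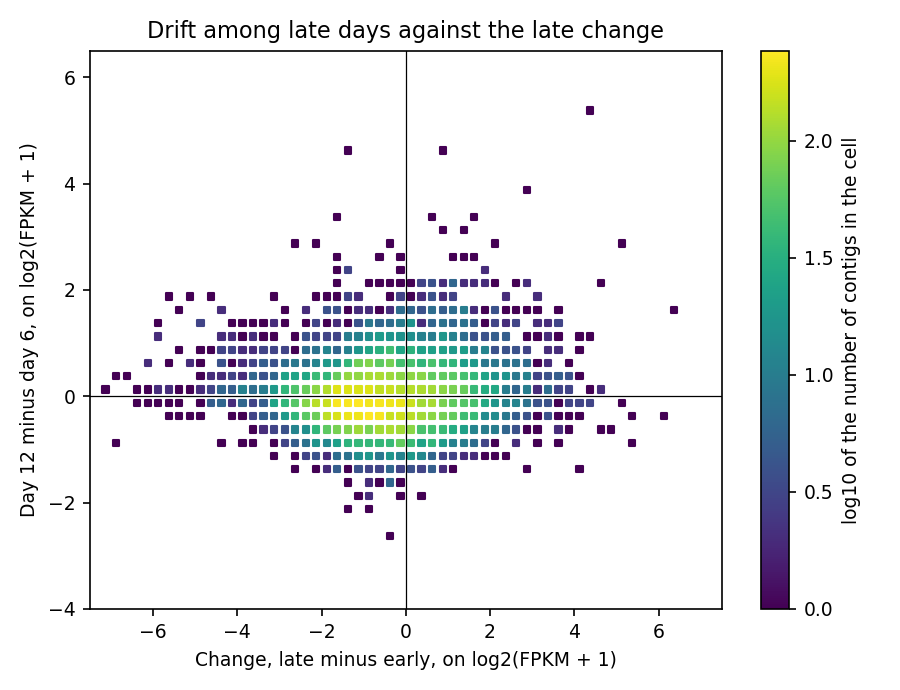
Number of early-expressed contigs (colour, log10 of the number in a cell of the grid) by change between late and early (horizontal axis) and by day 12 minus day 6 (vertical axis), both on log2(FPKM + 1). The cloud is wide along the horizontal axis and flat along the vertical one, with more contigs far above 0 than far below it: 50 against 2 among those with differing late days and a 4-fold difference.

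The 2 libraries of day 3, used in no test, showed how far the step had gone by then. Each contig was placed on a scale with 0 at its early mean and 1 at its late mean, on log2(FPKM + 1), for contigs called and changed at least 2-fold. The 4609 contigs that fell stood at a median of 1.04 on day 3 (quartiles 0.749 and 1.27), and 2507 of them (54.4%) were at or past the late level. The 1481 contigs that rose stood at a median of 0.589 (quartiles 0.0907 and 0.988), with 361 (24.4%) at or past the late level and 309 (20.9%) not above the early one. With rescaled libraries the medians were 0.936 for falls and 0.795 for rises, a gap of 0.14 between the directions where FPKM as deposited gave 0.45. The gap was not tested.

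The share of contigs called lower varied with their level in the early state. Changes of low contigs are understated on log2(FPKM + 1), and how far this lowers the share in the low classes was not tested. Of the 618 contigs with an early mean below 2 FPKM, 38.2% were called lower and 23.9% higher. The share called lower was 51.7% from 2 to 5 FPKM, 55.9% from 5 to 10, 54.6% from 10 to 20, 59.0% from 20 to 50, 62.0% from 50 to 100 and 62.8% from 100 to 500. The 176 contigs at 500 FPKM or more departed from this order, with 46.0% called lower, 8.52% higher and 45.5% not called. Their median change was -0.30, against -0.73 in the class from 100 to 500 FPKM. With rescaled libraries 40.3% of these 176 were lower and 17.6% higher, and their median change was 0.03. The classes were not tested against each other.

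**Figure D5:**
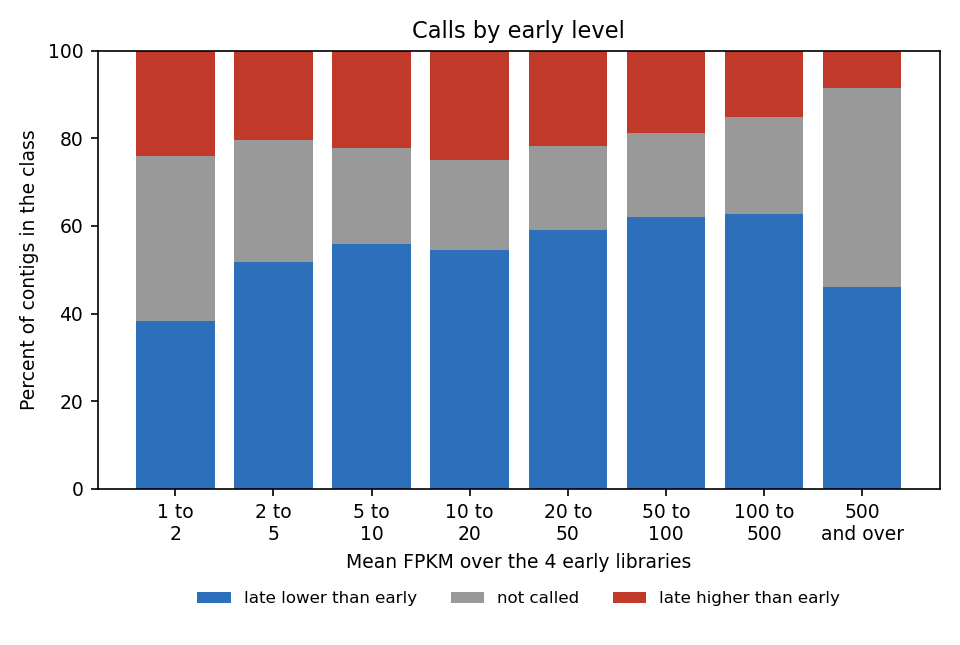
Percent of early-expressed contigs called lower, not called or called higher in the late state, in 8 classes of mean FPKM over the 4 early libraries. The share called lower is 38.2% in the lowest class, 62.8% from 100 to 500 FPKM and 46.0% at 500 FPKM or more, where 45.5% were not called.

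The top of the abundance order was partly kept. Of the 100 contigs with the highest early mean, 69 were also among the 100 highest late, 48 were called lower and 5 higher. The 31 that entered the late top 100 had a median of 818 FPKM late and 568 FPKM early, and 22 of them were called higher. Of the 1000 highest early contigs 592 were among the 1000 highest late, 594 were called lower and 150 higher. Of the 1000 highest late contigs 923 were early-expressed. Across all early-expressed contigs the Spearman rho between late and early mean FPKM was 0.685, a description across contigs.

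Gains and losses in FPKM were each carried by few contigs, as was FPKM itself. The 100 highest contigs of a library held a mean of 40.7% of its FPKM late and 43.8% early. The 3992 early-expressed contigs with a higher late mean gained 121215 FPKM in all, and 103 of them held 50% of the gain. The 8512 with a lower late mean lost 210362 FPKM, and 96 of them held 50% of the loss. The most abundant contig of the table accounted for 11.9% of the gain. It had 57707 and 60512 FPKM in the day 6 libraries, 51119 and 33761 in those of day 9 and 32956 and 31628 in those of day 12, against 31159 and 36542 FPKM in the day 0 libraries and 25358 and 27548 in the control. Its late mean of 44614 ± 13333 FPKM (SD, n = 6) and early mean of 30152 ± 4886 (SD, n = 4) were not called different, with a change of 0.52 (95% interval -0.26 to 1.31, limma adjusted p = 0.206). The second day 9 library and both day 12 libraries lay within the range of the early ones, while both day 6 libraries and the first of day 9 lay above it.

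Most contigs that were not called had a change on log2(FPKM + 1) bounded on both sides. Of these 2977, the 95% interval of the change lay within 2-fold of FPKM + 1 in either direction for 2420 (81.3%). For contigs of low FPKM this bound limits the fold change of FPKM itself only weakly, so it does not show constant expression. The median of the 2977 contigs was 6.63 to 7.75 FPKM in the late libraries and 6.97 to 7.33 in the early ones. They held 36.1% to 46.2% of the FPKM of a late library, with 45.7% and 46.2% on day 6 and 36.1% and 36.4% on day 12, and 34.4% to 36.7% of an early one.

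The remaining 18310 contigs of the table, which missed 1 FPKM in at least 1 early library, held 5.24% to 12.3% of the FPKM of a late library and 0.990% to 2.00% of an early one, a low early share that the choice of contigs fixes. Of them 2761 had at least 1 FPKM in all 6 late libraries. Total FPKM was 487140 to 563295 in the late libraries and 541131 to 603105 in the early ones (difference -54461, exact permutation p = 0.0571, two-sided, adjusted p = 0.171 over 3 library values). The 10 highest contigs of a library held 17.8% ± 3.14 of its FPKM late (SD, n = 6) and 16.4% ± 2.16 early (SD, n = 4; exact permutation adjusted p = 0.448). The 100 highest held 40.7% ± 5.50 late and 43.8% ± 2.73 early (exact permutation adjusted p = 0.448). The smallest p these 210 splits allow is 0.00952, and with the 5 groups as units it would be 0.200.

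Both directions of change occurred in each class of contig names and within single assembly components. Every contig name closes with one of the numbers 1 to 4, and the sources used here do not explain it. Early-expressed contigs were 51.1% of those ending in 1, 40.7% in 2, 50.5% in 3 and 29.0% in 4. The share called lower was 58.0%, 54.4%, 54.4% and 51.9% in that order, and the share called higher 19.0%, 22.8%, 22.5% and 21.8%. Contigs of a Trinity component, which groups sequences that overlap during assembly, were compared within the same ending number. Of 592 components with 2 or more early-expressed contigs, 174 had all of them called lower and 46 had all called higher. In 117 (19.8%) there was both a contig called higher and one called lower. Over all early-expressed contigs 54.5% were called lower and 21.7% higher. Contigs of different components were not compared in this way, so the counts are not read as a trait of components. How the abundance program divided reads shared by contigs of a component is unknown, so opposite calls within a component are uncertain.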

How the data were processed

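The authors deposited expression as FPKM, with 1 column for each library and contigs named in the manner of the Trinity assembler, per the file headers. TruSeq RNA libraries were made from total RNA, per the labels' protocols. The sources used here name no assembly settings, abundance program or read filters, and depth in reads is unknown, so no counting interval is given. All 12 columns belong to labelled samples, and groups came from the titles. Whether the 2 libraries of a group stem from different cultures is not in the labels. P-values therefore speak only to the spread between these libraries, and that spread may be technical.

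Values were tested as log2(FPKM + 1) with limma 3.58.1 in R 4.3.3 (lmFit and eBayes with an intensity trend) on all 30814 contigs, late (days 6, 9 and 12) against early (day 0 and control). Benjamini-Hochberg adjustment ran over the whole table at a threshold of 0.05. A second fit of 5 group means tested the late days (moderated F) and day 0 against the control. Library values were compared by exact permutation in scipy 1.17.1 under Python 3.11.15. Rescaling used each library's median ratio over 16488 contigs above 0 in all 10 libraries, and over 15673 above 0 in all 12 where day 3 was shown. The 2 largest rises and 2 largest falls among called contigs without overlap between the states are named, because IDs carry no gene names. The members and lists were chosen with earlier results of these data known. No pair of libraries of a group shared an identical value above 0.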

Additional observations from a re-analysis of the deposited data

Results flagged for a closer look

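The 2 named contigs that rose differed among the late days, so the size of their rise depends on the day. TRINITY_DN16841_c0_g1_i1_1 stood at 101 ± 3.96 FPKM on day 6, 259 ± 45.7 on day 9 and 294 ± 2.39 on day 12 (SD, n = 2; limma F test adjusted p = 0.000369). TRINITY_DN708_c0_g1_i18_1 stood at 1150 ± 6.83 FPKM on day 6, 798 ± 49.7 on day 9 and 965 ± 64.3 on day 12 (SD, n = 2; limma F test adjusted p = 0.0103). Library values and named contigs were also searched for a single library far from the others of its state in 16 sets of 4 or 6 libraries. The search listed none, though some early libraries stood somewhat apart. TRINITY_DN16841_c0_g1_i1_1 had 1.10 FPKM in the second day 0 library, beside 1.22 to 1.25 in the other early ones. TRINITY_DN708_c0_g1_i18_1 had 13.7 FPKM in the first control library, beside 12.2 to 12.6 in the other early ones.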

How the results depend on the processing

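The direction and call of the 4 named contigs held under all 21 alternatives run for each. The counts of contigs lower and higher in the late state (6819 and 2708) were 6471 to 6782 and 2518 to 2695 with 1 library left out. They were 6812 and 2715 with a pseudocount of 0.1, 6946 and 2759 fitted on the early-expressed contigs alone and 7440 and 3146 with 5 group means. With the group means as 5 single values, chosen after seeing the data, they were 5584 and 2024. The set of contigs counted moved them most. The counts were 4260 lower and 1645 higher at 5 FPKM in all early libraries, 6919 and 6235 at a mean of 1 FPKM, 4294 and 5199 at 1 FPKM in all late libraries, and 7737 and 13095 without a filter. At 1 FPKM in all 10 libraries (chosen after seeing the data) they were 4294 and 2708. Rescaled libraries with a mean of 1 FPKM, also chosen afterwards, gave 5741 and 7241.

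Contigs with differing late days (2994) numbered 1102 to 4168 with 1 library left out, 5113 at a mean of 1 FPKM and 8415 without a filter. Contigs differing between day 0 and the control (2014) numbered 438 to 2952 with 1 library left out, 3144 fitted on the early-expressed contigs alone and 1286 at 5 FPKM. The difference in the share of the 10 highest contigs was -0.230 percentage points without day 6 and -0.0657 without the control, against 1.45, with no call in any case. The difference in this share was 0.705 to 2.45 with 1 library left out, in that of the 100 highest -4.27 to -1.76 and in total FPKM -65633 to -44975.

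The replicate number as a block gave 6716 lower, 2627 higher, 2317 with differing late days and 1526 between day 0 and the control. The difference of library 1 and 2 correlated between -0.184 and 0.108 over the 10 pairs of groups. Such weak correlations cannot decide whether the numbers pair the samples. The cause of these shifts was not tested.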

Other observations

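Among early-expressed contigs of the same Trinity component, 470 pairs had both contigs called. Of these pairs 148 (31.5%) moved in opposite directions, 42 of them by at least 2-fold in both contigs. Pairs from different components were not examined, so this share has no background beside it. The largest component held 6 early-expressed contigs. The day 9 libraries differed in the share of FPKM held by the 100 highest contigs, at 43.8% and 37.0%, beside 46.3% and 46.8% on day 6 and 34.9% and 35.5% on day 12.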
